A study of Triticum aestivum with 12 samples.

Results

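The transcriptomes of leaf and axillary bud were compared in winter wheat plants that had passed through vernalization. The comparison rests on 4 of the 12 RNA-seq libraries of the series, 2 of vernalized leaf and 2 of vernalized axillary bud, and they were chosen by tissue and treatment alone. All plants were of the winter cultivar AK58. Vernalized plants were kept for 1 month at 4 °C with 16 h of light and 8 h of darkness, followed by 1 day in the greenhouse, where the light period was kept at 22 °C and the dark period at 19 °C. The 4 libraries of leaf and axillary bud before vernalization came from plants grown for 2 weeks in that greenhouse regime with days of 16 h, and were used to ask which differences between the tissues were already present. By the sampling scheme of the study, the vernalized plants had also grown for 2 weeks in the greenhouse before the cold, so they were older when sampled. The cold cannot be told apart from this difference in age, as no group outside the cold was matched to them in age. Both axillary bud and apex were obtained by microdissection, which was not needed for leaf. The 4 libraries of shoot apex (2 before and 2 after vernalization) entered the shared statistical model, the choice of tested genes and the scaling factors. They also entered the means and correlations over all 12 libraries and are otherwise given as side values. The replicates of a group are described as biological replicates, but whether they came from separate plants or pools was not given in the sources used here, so p-values measure the spread between these libraries.

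Vernalization is the long exposure to cold after which winter cereals become able to flower. The leaf is the photosynthetic organ, and it is exposed to cold and light. The axillary bud sits in the axil of a leaf, is wrapped in leaf sheaths, carries its own meristem and can grow out into a tiller. Bread wheat is hexaploid, so most genes exist as homoeologues on the A, B and D sub-genomes, and the chromosome of a gene can be read from its identifier (TraesCS2D marks chromosome 2D). Apart from the SPL transcription factors, the identifiers are not paired with gene names or functions in the sources used here, so genes are given by identifier, and neither leaf nor bud markers could be used to check the tissue labels. In whole tissues, fewer cells of a type and less RNA per cell cannot be told apart.

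Expression was measured as TPM, a relative transcript abundance that corrects for the length of a gene and for the size of the library. TPM keep no reads per gene, so the depth behind a value is unknown, and genes without signal are called listed at 0. The vernalized libraries differed in make-up. The 100 most abundant genes took 36.1% and 40.6% of all TPM in vernalized leaf, against 14.8% and 15.2% in vernalized axillary bud, and 37248 and 34465 genes were above 1 TPM in vernalized leaf, against 50836 and 50485 in vernalized axillary bud. A few abundant genes lower the TPM of all others. Every test between the tissues was therefore made on the deposited TPM and again after median-of-ratios scaling. This scaling divides each library by its median ratio to a common reference (factors of 0.623 and 0.530 in vernalized leaf, and 1.38 and 1.35 in vernalized axillary bud).

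After vernalization, leaf and axillary bud differed in the expression of most genes. Of 60326 genes whose mean exceeded 1 TPM in any of the groups, 8800 (14.6%) were higher in vernalized leaf and 30009 (49.7%) were higher in vernalized axillary bud, while 21517 met neither condition. A gene was called at an unadjusted two-sided p under 0.01 and a fold change above 2 in a limma model of log2(TPM + 1). With the Benjamini-Hochberg adjusted p under 0.05 in its place, 8892 and 30222 genes were called. The balance between both directions depended on the scale. The median difference over all tested genes, vernalized leaf minus vernalized axillary bud, was -1.005 on the log2 scale of deposited TPM and -0.24 after scaling. Among 59825 genes tested after scaling, 14829 (24.8%) were higher in vernalized leaf and 17301 (28.9%) in vernalized axillary bud. Leaf thus held 22.7% of the calls on deposited TPM and 46.2% after scaling. All 8800 genes called higher in leaf on deposited TPM were also called after scaling, and 17301 genes were called higher in axillary bud on both scales. Differences between tissues were much larger than those between replicates, with a median absolute log2 difference of 1.38 between tissues (1.12 after scaling), against 0.158 between the vernalized leaf libraries and 0.101 between the vernalized axillary bud libraries.

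**Figure D1:**
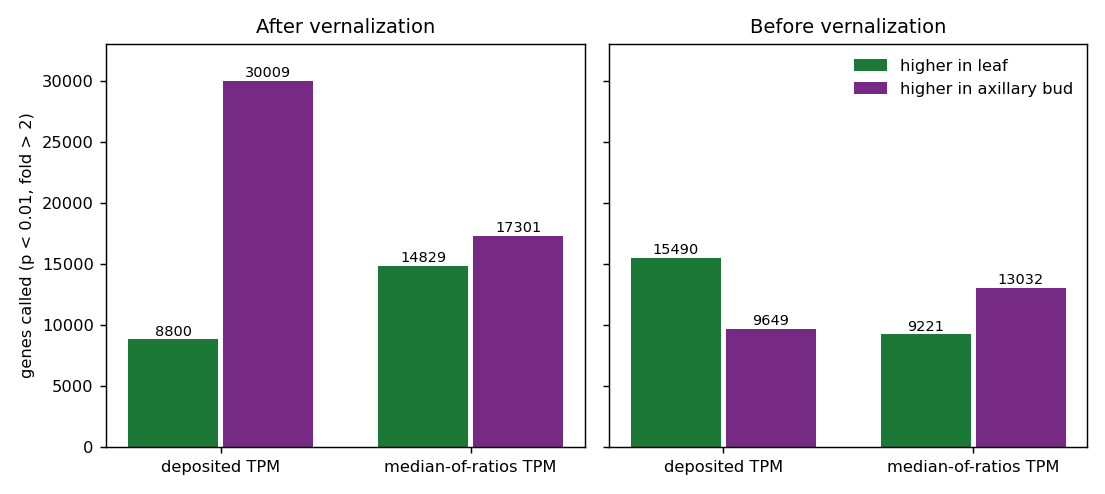
Number of genes called higher in leaf (green) and in axillary bud (purple) after (left) and before (right) vernalization, on deposited and on median-of-ratios TPM. After vernalization 8800 genes were higher in leaf and 30009 in axillary bud on deposited TPM, against 14829 and 17301 after scaling.

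Expression was also compared as on (at least 1 TPM in both libraries) or off (under 1 TPM in both). After vernalization 4137 genes were on in leaf and off in axillary bud, 17596 were off in leaf and on in axillary bud, and 28696 were on in both tissues. The corresponding numbers before vernalization were 6080, 4468 and 35891. After scaling, 6713 genes were on in vernalized leaf alone, 11358 in vernalized axillary bud alone and 32443 in both, and the numbers before vernalization were 4476, 6765 and 32805, so that the order of the tissues before vernalization depended on the scale. At the extreme, 439 genes were above 1 TPM in both vernalized leaf libraries and listed at 0 in both of axillary bud, and 4 of them were above 100 TPM. In the other direction 2537 genes were above 1 TPM in both vernalized axillary bud libraries and listed at 0 in both of leaf, and 144 of them were above 100 TPM. At least 1 TPM in both libraries of vernalized shoot apex, the other dissected tissue, was found for 40.4% of the genes higher in vernalized leaf. It was found for 85.3% of those higher in vernalized axillary bud. This was counted on deposited TPM alone and not over all tested genes, so the shares are a description.

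The genes with the largest differences in favour of vernalized leaf often lay on the chromosomes of homoeologous group 2. Of the 100 largest, 26 carried a group 2 identifier, as did 9851 of the 60326 tested genes, and 9 of the first 10 did. Their median was 689 and 847 TPM in the vernalized leaf libraries, against 2.42 and 2.28 TPM in those of vernalized axillary bud, and all 100 were also called after scaling. The 100 genes were chosen by this difference, so the values describe them and test nothing. At the edge of the list, the last gene inside had a log2 difference of 6.79 (TraesCS6B02G160400) and the first outside 6.78 (TraesCS1B02G411100).

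TraesCS2D02G515400 had the largest difference, with 3041.5 and 1979 TPM in vernalized leaf and 0.97 and 1.11 TPM in vernalized axillary bud. The log2 difference was 10.24 ± 0.29 (SE; limma adjusted p = 3.2e-10) on deposited TPM and 11.25 after scaling. This gene was also higher in leaf before vernalization, at a far lower level of 10.3 and 18.7 TPM in leaf and 0.23 and 0 TPM in axillary bud.

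A set of 6 genes formed adjacent pairs of identifiers on 2A, 2B and 2D, namely TraesCS2A02G427100 and TraesCS2A02G427200, TraesCS2B02G447500 and TraesCS2B02G447600, and TraesCS2D02G425200 and TraesCS2D02G425300. Together they took 1.40% and 1.43% of all TPM in the vernalized leaf libraries, each at 1101 to 3783 TPM, against 0.554 to 6.24 TPM in vernalized axillary bud. Before vernalization none exceeded 0.148 TPM in leaf or 1.47 TPM in axillary bud. The highest single member was TraesCS2D02G425200, with 3783 and 3695 TPM in vernalized leaf, 2.39 and 2.97 TPM in vernalized axillary bud, and 0 in all 4 libraries before vernalization. Its log2 difference was 9.99 ± 0.23 (SE; limma adjusted p = 1.5e-10). TraesCS2A02G427200 had 3244 and 3224 TPM in vernalized leaf and 3.06 and 3.05 TPM in vernalized axillary bud, with a log2 difference of 9.64 ± 0.19 (SE; limma adjusted p = 1.5e-10). The genes of the 2B pair followed the same course across the 12 libraries, so reads shared between near-identical copies cannot be told apart from parallel expression of both.

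The other genes among the first 10 had different histories. TraesCS2B02G541900 had 2355 and 1663 TPM in vernalized leaf and 0.927 and 2.29 TPM in vernalized axillary bud, and it already stood at 112 and 135 TPM in leaf before vernalization, against 0 in both axillary bud libraries. TraesCS2D02G065100 was abundant in leaf at both stages, with 1995 and 2306 TPM in vernalized leaf and 4776 and 2418 TPM in leaf. In axillary bud it had 4.51 and 3.30 TPM after vernalization and 27.4 and 15.4 TPM before. TraesCS2D02G460700 had 711 and 409 TPM in vernalized leaf and 0.266 and 0.246 TPM in vernalized axillary bud, and stood at 0.787 and 1.64 TPM in leaf before. TraesCS3B02G561700 had 727 and 896 TPM in vernalized leaf and 1.06 and 0.936 TPM in vernalized axillary bud. Before vernalization it was at similar low levels in both tissues, with 4.17 and 6.82 TPM in leaf and 5.48 and 3.99 TPM in axillary bud, and its neighbour TraesCS3B02G561800 followed the same course.

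**Figure D2:**
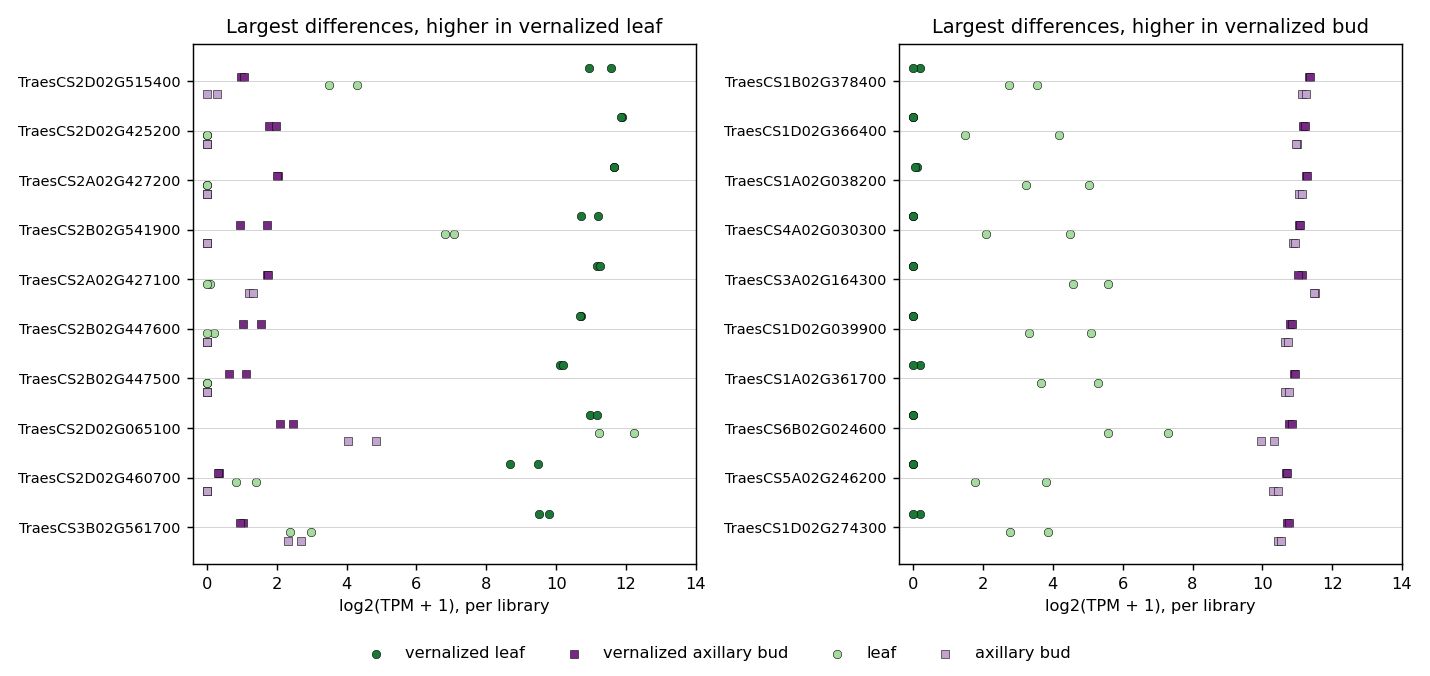
The 10 genes with the largest difference in favour of vernalized leaf (left) and of vernalized axillary bud (right), as log2(TPM + 1) in each library, with 2 points per group. The vernalized leaf points lie far right of all others in the left panel except in TraesCS2D02G065100, where leaf was as high before vernalization, and at or near 0 in the right panel.

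The genes with the largest differences in favour of vernalized axillary bud had another pattern, as they were abundant in axillary bud at both stages and lay near 0 in vernalized leaf. Over the 100 largest, the median was 0 in both vernalized leaf libraries and 910 and 942 TPM in those of vernalized axillary bud, and 47 genes were listed at 0 in both vernalized leaf libraries. Before vernalization the same genes had medians of 4.70 and 16.9 TPM in leaf and 907 and 930 TPM in axillary bud. All 100 had at least 1 TPM in every shoot apex library, with medians of 1052 and 1425 TPM after vernalization, and the share over all tested genes was not counted. Their identifiers lay mostly on groups 1 (30 genes), 6 (27 genes) and 3 (18 genes), compared with 11, 15 and 17 of the 100 leaf genes. Of the 60326 tested genes, 7569 lay on group 1, 7135 on group 6 and 9256 on group 3. The last gene inside the list had a log2 difference of -8.99 (TraesCS6D02G040300), as had the first outside (TraesCS6D02G046600).

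TraesCS1B02G378400 had the largest difference, with 0.148 and 0 TPM in vernalized leaf and 2575 and 2660 TPM in vernalized axillary bud (log2 difference -11.26 ± 0.32, SE; limma adjusted p = 3.2e-10). Before vernalization it had 5.75 and 10.7 TPM in leaf and 2254 and 2447 TPM in axillary bud. TraesCS1A02G038200 was similar, with 0.0678 and 0.037 TPM in vernalized leaf and 2411 and 2501 TPM in vernalized axillary bud (log2 difference -11.19 ± 0.46, SE; limma adjusted p = 2.6e-09). TraesCS3A02G164300 was listed at 0 in both vernalized leaf libraries and had 2233 and 2068 TPM in vernalized axillary bud, compared with 22.8 and 46.5 TPM in leaf and 2905 and 2831 TPM in axillary bud before vernalization.

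Of the remaining genes among the first 10, TraesCS1D02G366400, TraesCS4A02G030300, TraesCS1D02G039900, TraesCS6B02G024600 and TraesCS5A02G246200 were listed at 0 in both vernalized leaf libraries, and TraesCS1A02G361700 and TraesCS1D02G274300 had 0.148 TPM in the first and 0 in the second. In vernalized axillary bud these 7 genes had 1628 to 2407 TPM. TraesCS6B02G024600 stood out by its level in leaf before vernalization, at 46.5 and 156 TPM. The leaf libraries from before vernalization differed from each other here, since 99 of the 100 genes were higher in replicate 2 than in replicate 1, and the part of this in the change of the difference was not tested.

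The most abundant genes of each tissue were of both kinds. In vernalized leaf the 5 genes with the highest TPM were all on group 5, and TraesCS5D02G169900 led with 25062 and 27419 TPM, against 169 and 155 TPM in vernalized axillary bud (log2 difference 7.33 ± 0.33, SE; limma adjusted p = 4.5e-09). TraesCS5B02G162800, TraesCS5A02G165700, TraesCS5A02G165400 and TraesCS5D02G169600 followed, and the 5 genes together took 8.58% and 9.23% of all TPM in vernalized leaf, against 0.0615% and 0.0539% in vernalized axillary bud. They were leaf-preferential before vernalization too, where they took 7.23% and 4.53% of the TPM in leaf and 0.167% and 0.111% in axillary bud.

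In vernalized axillary bud TraesCS1D02G034800 was the most abundant, with 8.37 and 8.52 TPM in vernalized leaf and 9461 and 9986 TPM in vernalized axillary bud (log2 difference -10.01 ± 0.35, SE; limma adjusted p = 1.1e-09). Before vernalization it had 1.70 and 3.18 TPM in leaf and 2198 and 1588 TPM in axillary bud, and the change of its difference with vernalization did not pass the test (-0.89 ± 0.50 on the log2 scale, SE; limma adjusted p = 0.12). TraesCS5B02G448500, the fourth, had 58.8 and 68.7 TPM in vernalized leaf and 2329 and 2427 TPM in vernalized axillary bud, and the change of its difference did not pass the test on deposited TPM (0.85, limma adjusted p = 0.17) but did after scaling (2.68, limma adjusted p = 0.014). The other 3 of the 5 most abundant, TraesCS1B02G378400, TraesCS1A02G038200 and TraesCS1D02G366400, are also among the 10 largest differences.

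Among the 100 genes with the largest difference in favour of vernalized leaf, 11 were silent in both tissues before vernalization, defined as under 1 TPM in each of the 4 leaf and axillary bud libraries. Of these, 8 were listed at 0 in all 4. Of the other 89 genes, 19 were on in leaf alone before vernalization, 3 in axillary bud alone and 52 in both, and in the remaining 15 the replicates of a tissue fell on both sides of 1 TPM. None of the 100 genes with the largest difference in favour of vernalized axillary bud was silent before, and 92 of them were on in both tissues. The bud list ended at a log2 difference of -8.99 and the leaf list at 6.79, so both counts stand at unlike differences. The share among the leaf genes was 11%, against 10.8% of all tested genes, but it depended on the pseudocount, since 30 of the 100 largest leaf differences were silent before when 0.1 in place of 1 was added to the TPM. Over all genes called higher in vernalized leaf it was 22.9%, and over all called higher in vernalized axillary bud 6.10% (20.7% and 6.10% after scaling, against 11.7% of all tested genes). A gene silent before vernalization in leaf and axillary bud could be tested only if it reached 1 TPM in a vernalized group or in shoot apex, so these shares are a description.

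The silent genes reached high levels in vernalized leaf. The 5 with the highest TPM belong to the adjacent pairs on 2A, 2B and 2D described above, namely TraesCS2D02G425200, TraesCS2A02G427200, TraesCS2D02G425300, TraesCS2B02G447600 and TraesCS2B02G447500. TraesCS2D02G425300 had 1888 and 2052 TPM in vernalized leaf and 6.24 and 5.36 TPM in vernalized axillary bud, and was listed at 0 in all other libraries. The sixth member of the pairs, TraesCS2A02G427100, was not silent by the definition, since it had 1.31 and 1.47 TPM in axillary bud before vernalization.

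The other 6 silent genes were lower. TraesCS5B02G355800 had 502 and 342 TPM in vernalized leaf and 1.45 and 1.27 TPM in vernalized axillary bud. TraesCS6D02G332600, TraesCS4B02G364100 and TraesCS2B02G482200 were found in vernalized leaf alone, as they were listed at 0 in the 10 other libraries. They had 273 and 190 TPM, 158 and 171 TPM, and 215 and 100.7 TPM in the vernalized leaf libraries. TraesCS4D02G238700 had 127 and 139 TPM in vernalized leaf and 0 and 0.098 TPM in vernalized axillary bud, and TraesCS4D02G357400 had 125 and 131 TPM in vernalized leaf and 0.12 and 0.185 TPM in vernalized axillary bud. The 11 genes were under 1 TPM in both shoot apex groups as well, with a highest value of 0.771 TPM.

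**Figure D3:**
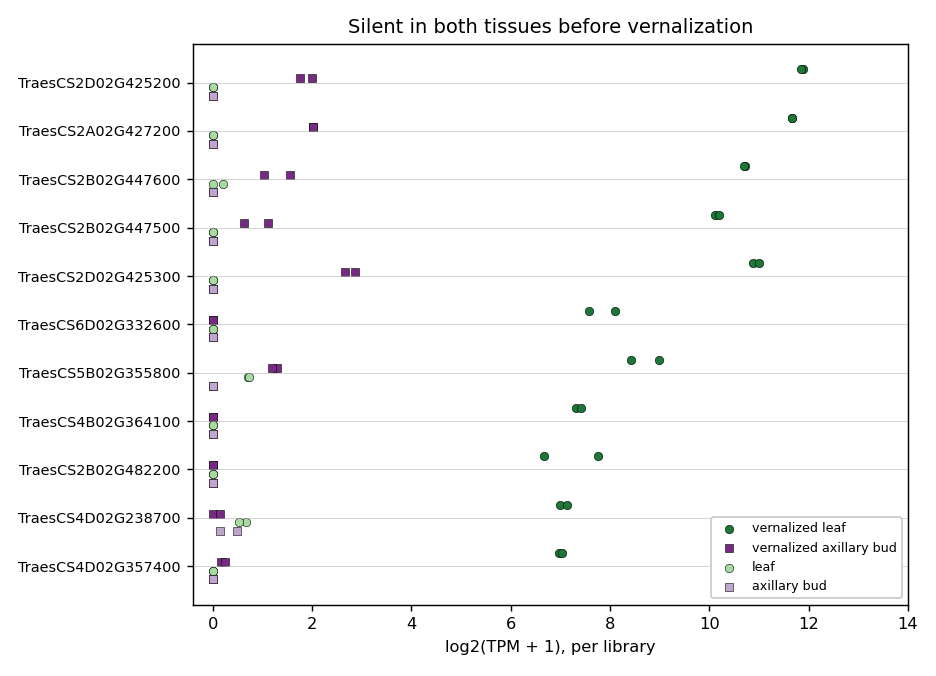
The 11 genes that were silent in leaf and axillary bud before vernalization among the 100 largest differences in favour of vernalized leaf, as log2(TPM + 1) in each library. Vernalized leaf lies between 100.7 and 3783 TPM, and vernalized axillary bud between 0 and 6.24 TPM.

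Genes silent before vernalization and high in axillary bud afterwards existed at lower levels. The 5 most abundant of those called on both scales, chosen after their values were seen, were TraesCS1D02G001200, TraesCS1D02G000200, TraesCS6D02G000200, TraesCS1D02G009400 and TraesCS1A02G008000. TraesCS1D02G001200 was listed at 0 in both vernalized leaf libraries and had 112 and 106 TPM in vernalized axillary bud, and the other 4 genes reached 72.9 to 92.7 TPM in vernalized axillary bud. None exceeded 0.0629 TPM in vernalized leaf, 0.477 TPM in leaf or 0.166 TPM in axillary bud before vernalization. Over all genes, 1734 silent genes were on in vernalized leaf alone, 1959 in vernalized axillary bud alone and 538 in both, and the order of the tissues turned round after scaling (3324, 1424 and 716). At 10 TPM or more in the tissue where they were on, the numbers were 214, 80 and 112, and after scaling 548, 62 and 178.

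The difference between the tissues after vernalization was then compared with that before, measured in other libraries of the same model. Before vernalization 15490 genes (25.7%) were higher in leaf and 9649 (16%) in axillary bud on deposited TPM, with a median difference over all genes of 0.17, and 9221 (15.4%) and 13032 (21.8%) after scaling, with a median of -0.14. Of the 8800 genes higher in vernalized leaf, 4727 (53.7%) were already higher in leaf, 3566 were called in neither direction and 507 had been higher in axillary bud. Of the 30009 genes higher in vernalized axillary bud, 7709 (25.7%) were already higher in axillary bud, 19759 were called in neither direction and 2541 had been higher in leaf. After scaling, 5736 (38.7%) of the genes higher in vernalized leaf and 8696 (50.3%) of those higher in vernalized axillary bud were called the same way before, and 1120 and 364 the other way. The order of both shares was thus opposite on both scales.

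The change of the difference with vernalization was tested as an interaction, called at a limma adjusted p under 0.05 and above 1 on the log2 scale. On deposited TPM it moved towards leaf in 10.2% of the tested genes and towards axillary bud in 57%, and after scaling in 21.9% and 18.4%. Among the 100 largest differences in favour of vernalized leaf, 85 moved further towards leaf (95 after scaling), 61 were called higher in leaf before, 32 in neither direction and 7 in axillary bud. Among the 100 in favour of vernalized axillary bud, all were called higher in axillary bud before, and 93 moved further towards axillary bud (65 after scaling). Both lists were ranked by the difference after vernalization, which is part of the change, so these counts are a description and test nothing.

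The levels in each tissue were also compared between the stages, as a description, since the vernalized libraries chose the genes and enter these differences too. Over all tested genes, the median difference of vernalized leaf minus leaf was -0.90 on the log2 scale of deposited TPM and that of vernalized axillary bud minus axillary bud was 0.29, against -0.02 and 0.05 after scaling. Over the 3566 genes higher in vernalized leaf without a call before, the median was 2.04 in leaf and 0.08 in axillary bud, against 1.92 and 0.05 over the 7973 such genes after scaling. For the 19759 genes higher in vernalized axillary bud without a call before, the medians were -1.45 in leaf and 0.35 in axillary bud, against -0.87 and 0.18 over the 8241 such genes after scaling.

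**Figure D4:**
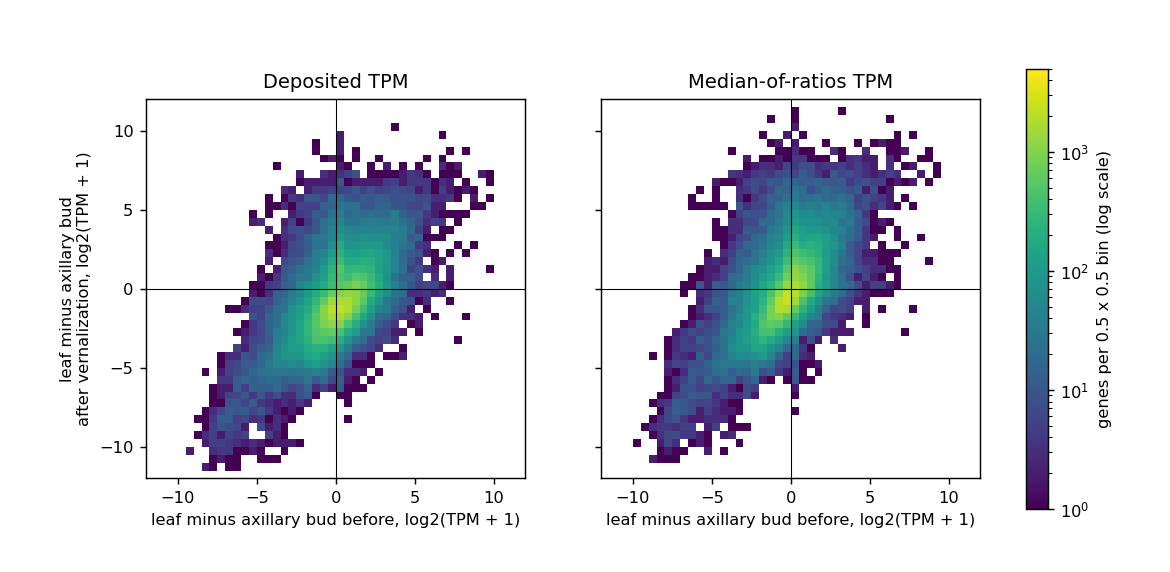
Difference between leaf and axillary bud after vernalization (vertical axis) against that before (horizontal axis), both as leaf minus axillary bud in mean log2(TPM + 1), on deposited (left) and median-of-ratios TPM (right). Color gives the number of genes per bin on a log scale, and the bulk of genes sits below 0 on the vertical axis on deposited TPM (median -1.005) and closer to it after scaling (median -0.24).

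Some genes reversed their tissue. Among the genes higher in axillary bud before and in leaf after vernalization, TraesCS6A02G094300 had the largest change. It had 813 and 1122 TPM in vernalized leaf and 3.96 and 3.41 TPM in vernalized axillary bud, compared with 0.545 and 0 TPM in leaf and 24.8 and 10.5 TPM in axillary bud before vernalization. The difference changed by 11.47 ± 0.50 on the log2 scale (SE; limma adjusted p = 2.5e-08) and by 12.61 after scaling.

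TraesCS2A02G427100 of the 2A pair came next with a change of 10.69, although its bud level before vernalization was just above 1 TPM. TraesCS1A02G403800 followed, with 1235 and 2052 TPM in vernalized leaf and 2.63 and 3.29 TPM in vernalized axillary bud, compared with 13.5 and 4.71 TPM in leaf and 32.1 and 18.3 TPM in axillary bud. Its difference before vernalization was -1.47 (limma adjusted p = 0.0079), and the change was 10.13 ± 0.57 (SE; limma adjusted p = 1.3e-07).

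In the opposite direction, TraesCS6D02G358900 had 0.845 and 1.44 TPM in vernalized leaf and 22.8 and 22.6 TPM in vernalized axillary bud, compared with 248 and 229 TPM in leaf and 0.0658 and 0.0539 TPM in axillary bud before vernalization. The change was -11.30 ± 0.29 on the log2 scale (SE; limma adjusted p = 3.0e-09) and -9.68 after scaling. TraesCS6A02G001200 had 27.6 and 8.04 TPM in vernalized leaf and 230 and 295 TPM in vernalized axillary bud, compared with 39.4 and 40.3 TPM in leaf and 0.27 and 1.97 TPM in axillary bud. TraesCS7D02G383300 had 0.376 and 0.705 TPM in vernalized leaf and 4.32 and 3.87 TPM in vernalized axillary bud, compared with 555 and 744 TPM in leaf before vernalization. Its call in favour of vernalized axillary bud was lost after scaling (log2 difference -1.05) and without vernalized leaf replicate 1 (log2 difference -1.58).

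SPL genes encode plant-specific transcription factors with a SQUAMOSA promoter-binding domain. Many are held back by the microRNA miR156 in young plants, and they are known for their part in the age-dependent control of flowering and in shoot branching. TaSPL7 and TaSPL15 are counterparts of Arabidopsis SPL9 and of rice IPA1, which shapes tiller number and the panicle. All 53 SPL identifiers of the study were in the data, and 46 were tested. None was called higher in vernalized leaf, where 14.6% of all tested genes were. In vernalized axillary bud 33 (71.7%) were called higher, against 49.7% of all tested genes. After scaling 19 of 45 (42.2%) were higher in vernalized axillary bud, against 28.9% of all genes, and none in vernalized leaf, against 24.8%. With the adjusted p in place of the unadjusted p the counts were also 33 and 19, with 0 in favour of leaf on either scale. At an unadjusted limma p under 0.05 with no fold threshold, 1 gene (TaSPL12B) was higher in vernalized leaf, and 3 (TaSPL1A, TaSPL12B and TaSPL12D) after scaling. The median log2 difference of the tested SPL genes was -1.41, against -1.005 for all tested genes, and -0.88 after scaling, against -0.24. The family was in sum at 74.9 and 66.7 TPM in vernalized leaf and 318 and 299 TPM in vernalized axillary bud, and at 335 and 323 TPM in leaf and 205 and 201 TPM in axillary bud before vernalization.

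The TaSPL7 homoeologues were expressed in axillary bud and near 0 in leaf. TaSPL7A was listed at 0 in both vernalized leaf libraries and had 7.13 and 5.74 TPM in vernalized axillary bud. TaSPL7B had 0.0285 and 0.0415 TPM in vernalized leaf and 3.95 and 4.96 TPM in vernalized axillary bud (log2 difference -2.39 ± 0.20, SE; limma adjusted p = 5.9e-07), and TaSPL7D had 0.056 and 0.0408 TPM in vernalized leaf and 5.93 and 6.66 TPM in vernalized axillary bud (-2.80 ± 0.25, SE; limma adjusted p = 9.9e-07). All 3 were called on both scales and had been higher in axillary bud before, where they stood at 1.95 to 5.56 TPM.

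The TaSPL15 homoeologues were silent in both tissues before vernalization, with at most 0.385 TPM in leaf and 0.91 TPM in axillary bud. Afterwards they were listed at 0 in both vernalized leaf libraries and had 1.59 to 2.45 TPM in vernalized axillary bud, and the call in favour of axillary bud held on both scales. The change of the difference was -1.09 for TaSPL15A, -1.33 for TaSPL15B and -1.32 for TaSPL15D on the log2(TPM + 1) scale of deposited TPM (limma adjusted p of 0.00079, 0.00087 and 0.00019) and did not pass the threshold after scaling (-0.74, -0.94 and -0.95).

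Among the other members, TaSPL13A showed the largest difference, with 0.0262 and 0.0287 TPM in vernalized leaf and 9.85 and 8.16 TPM in vernalized axillary bud (log2 difference -3.28 ± 0.28, SE; limma adjusted p = 5.2e-07). TaSPL13B was listed at 0 in both vernalized leaf libraries and had 2.95 and 2.20 TPM in vernalized axillary bud, and TaSPL13D had 0.00683 and 0 TPM in vernalized leaf and 4.36 and 4.10 TPM in vernalized axillary bud. The 3 TaSPL13 genes were called on both scales and also before vernalization.

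The TaSPL9 homoeologues were called after vernalization and not before, and the change itself passed the test on both scales for TaSPL9A alone. TaSPL9A had 2.32 and 3.04 TPM in vernalized leaf and 18.1 and 19.6 TPM in vernalized axillary bud, compared with 13.5 and 12.1 TPM in leaf and 10.3 and 8.25 TPM in axillary bud before. Its difference changed by -2.87 (limma adjusted p = 0.00014) on deposited TPM and by -1.27 (limma adjusted p = 0.0057) after scaling. TaSPL9B and TaSPL9D were called higher in vernalized axillary bud on both scales as well, and none of the 3 was called before. TaSPL8A behaved likewise, with 0.039 and 0.0213 TPM in vernalized leaf and 2.22 and 2.57 TPM in vernalized axillary bud, and its difference changed by -1.99 and by -1.35 after scaling.

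The most abundant SPL genes gave calls that depended on the scale. TaSPL14B had 10.3 and 9.61 TPM in vernalized leaf and 43.8 and 41.0 TPM in vernalized axillary bud, compared with 74.4 and 70.8 TPM in leaf and 31.6 and 28.8 TPM in axillary bud. TaSPL14D had 9.92 and 8.88 TPM in vernalized leaf and 44.3 and 40.6 TPM in vernalized axillary bud, compared with 75.5 and 69.7 TPM in leaf and 31.4 and 28.5 TPM in axillary bud. Both were called higher in leaf before and in axillary bud after vernalization on deposited TPM (log2 difference -1.99 and -2.06), but at neither stage after scaling (-0.81 and -0.88 after vernalization). The change itself was called on both scales, at -3.22 and -3.31 on deposited TPM and -1.44 and -1.53 after scaling.

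The calls of the 3 TaSPL5 and 3 TaSPL6 genes, TaSPL8B, TaSPL11B, TaSPL11D, TaSPL14A, TaSPL18A and TaSPL18D1 were likewise made on deposited TPM alone. Of these, TaSPL6A, TaSPL6B, TaSPL6D and TaSPL14A lost their call when any 1 of the 4 vernalized leaf and axillary bud libraries was left out, and TaSPL18A without vernalized axillary bud replicate 1 (log2 difference -0.90). In a fit of the 4 vernalized leaf and axillary bud libraries alone, none of the 78 named genes tested changed its call. The log2 difference of TaSPL6D was -1.15 on deposited TPM and 0.0058 after scaling. On deposited TPM, the only tested SPL gene with both vernalized leaf libraries above both of axillary bud was TaSPL12B. It had 0.907 and 0.422 TPM in vernalized leaf and 0.249 and 0.291 TPM in vernalized axillary bud, and it was not called (log2 difference 0.37 ± 0.15, SE). Over all tested genes, 23.2% had both leaf libraries above both of axillary bud. The reverse held for 69.8% of all tested genes and for 44 of the 46 tested SPL genes. The 7 SPL genes that were not tested had a mean of at most 1 TPM in all 6 groups.

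**Figure D5:**
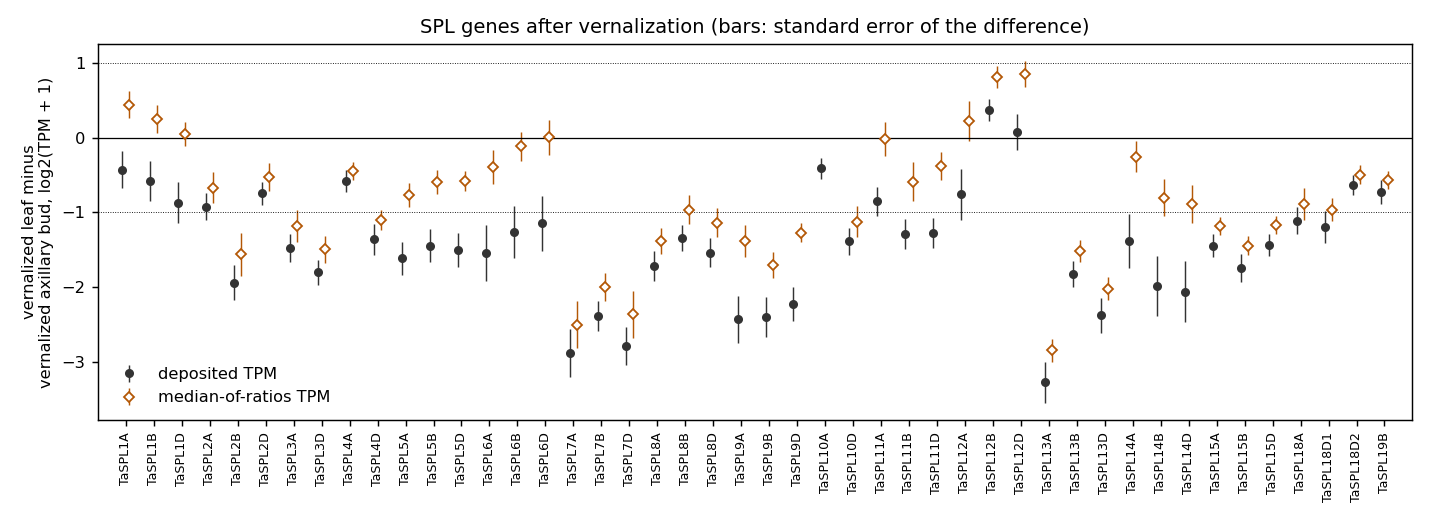
Log2 difference, vernalized leaf minus vernalized axillary bud, of the 46 tested SPL genes on deposited (filled) and of 45 on median-of-ratios TPM (open), with the standard error of the difference. Dotted lines mark differences of 1 in either direction, and TaSPL13A, TaSPL7A and TaSPL7D are the 3 lowest on both scales.

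The called genes were spread evenly over the sub-genomes. Of the tested genes of the A, B and D sub-genomes, 14.4%, 14.3% and 15.0% were higher in vernalized leaf and 49.8%, 49.8% and 49.9% in vernalized axillary bud. Single placed chromosomes ranged for leaf calls from 12.96% on 1B to 15.9% on 4B, and for axillary bud calls from 48.4% on 7D to 52.5% on 1D.

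The calls were also compared between homoeologues. Of 1410 triads with 3 tested members in the part of the homoeologue table at hand, 149 had all 3 members higher in vernalized leaf, 610 had all 3 higher in vernalized axillary bud, 271 had no called member, 370 had 1 or 2 members called in a shared direction and 10 had members called in opposite directions. After scaling the numbers were 252, 345, 407, 386 and 15 of 1405 triads. All 10 triads with opposite calls on deposited TPM held a 4A member. How many of the 1410 triads held a 4A member was not counted, so this describes no trait of 4A. The TaSPL1 genes of group 1 were in none of the triads at hand. The counts therefore describe this part of the homoeologue table and not the whole genome. The most divided was the triad of TraesCS4A02G345700, TraesCS5B02G527100 and TraesCS5D02G526800. The 5B member had 2.45 and 2.16 TPM in vernalized leaf and 246 and 239 TPM in vernalized axillary bud (log2 difference -6.20, limma adjusted p = 1.9e-08). The 4A member had 1.74 and 1.92 TPM in vernalized leaf and 0 and 0.0187 TPM in vernalized axillary bud, and the 5D member had 3.25 and 2.74 TPM in vernalized leaf and was listed at 0 in both axillary bud libraries.

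The next most divided triads shared the 4A and 5B members, TraesCS4A02G193900 and TraesCS5B02G145700. TraesCS4A02G193900 had 10.2 and 9.61 TPM in vernalized leaf and 3.67 and 4.32 TPM in vernalized axillary bud. TraesCS5B02G145700 had 0.619 and 0.882 TPM in vernalized leaf and 20.9 and 19.0 TPM in vernalized axillary bud. The D member was TraesCS4D02G119400 in one of these triads, with 19.7 and 20.4 TPM in vernalized leaf and 4.32 and 3.39 TPM in vernalized axillary bud. In the other triad it was TraesCS5D02G145500, with 4.51 and 4.62 TPM in vernalized leaf and 21.3 and 24.6 TPM in vernalized axillary bud. All of these calls held after scaling except that of TraesCS5D02G145500. TraesCS4A02G193900 and TraesCS5D02G145500 also stood in a triad with opposite calls with TraesCS4B02G121300, so the triads at hand overlap and are not independent. In the triads of TraesCS4A02G193900 and TraesCS5B02G145700, the 4A and 4D members were higher in vernalized leaf, and the 5B and 5D members in vernalized axillary bud. The 5D member of the most divided triad, TraesCS5D02G526800, was instead higher in vernalized leaf. Whether members on groups 4 and 5 are true homoeologues of each other was not tested.

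Runs of at least 4 consecutive identifiers called in the same direction numbered 65 in favour of vernalized leaf and 987 in favour of vernalized axillary bud, against 166 and 172 after scaling. The longest run for leaf held 8 identifiers, TraesCS1A02G384300 to TraesCS1A02G385000. Its most abundant gene was TraesCS1A02G384700, with 80.0 and 72.1 TPM in vernalized leaf and 1.38 and 0.513 TPM in vernalized axillary bud, and TraesCS1A02G384300 was near 0 in all libraries except those of vernalized leaf, where it had 25.1 and 25.9 TPM. The longest run for axillary bud held 13 identifiers, TraesCS7B02G393900 to TraesCS7B02G395100. All of them except TraesCS7B02G395000 remained called after scaling. In this run 6 genes had 304 to 716 TPM in vernalized axillary bud. TraesCS7B02G394800 led with 1.77 and 2.79 TPM in vernalized leaf and 669 and 716 TPM in vernalized axillary bud. Whether neighbours in a run share reads was not tested.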

How the data were processed

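RNA-seq had been carried out on 12 libraries, 2 in each of 6 groups of wheat cultivar AK58. According to the methods and labels, the authors trimmed reads with fastp 0.21.0, aligned them with HISAT2 to the IWGSC RefSeq v1.0 genome, sorted them with SAMtools 1.3.1 and computed TPM with TPMCalculator. The deposited values used here are these TPM for 107891 genes. The study tested counts with DESeq2 at p under 0.01 and a fold change above 2. Those counts were not used here, so limma stood in with the same thresholds.

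Genes whose mean exceeded 1 TPM in any group were tested on log2(TPM + 1) with limma 3.58.1 in R 4.3.3, 1 coefficient per group over all 12 libraries, a mean-variance trend and 6 residual degrees of freedom. The pseudocount of 1 understates the changes of low genes. Median-of-ratios factors came from 21695 genes. The code was tested on simulated data with known changes. Python 3.11.15, numpy 2.4.6, pandas 2.3.3 and matplotlib 3.10.9 were used for summaries and figures. No library pair held identical values, and 22403 genes had no signal in any library. The depth per sample is unknown, so no counting intervals are given.

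Named genes were the 10 largest differences in each direction among genes called on both scales with non-overlapping libraries, the 5 most abundant called genes of each tissue, the first 5 of the leaf genes silent before vernalization, the 3 largest reversals in each direction and the SPL genes, 84 in all with the 5 silent genes called in axillary bud, which were chosen after their values were seen. The longest run in each direction and up to 3 of the most divided triads were also named, and the other silent leaf genes were added after seeing their values. Neighbouring genes with a correlation near 1 over the 12 libraries were noted as following the same course. Members and lists were chosen with earlier results of these data known. Alternatives were median-of-ratios scaling, a pseudocount of 0.1, no filter and a filter of 5 TPM, no trend, the 4 libraries alone, a replicate block, each library left out, and other list sizes and run lengths. Identifiers matched no entry of the reference gene table, and SPL symbols and homoeologues came from the study's lists.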

Additional observations from a re-analysis of the deposited data

Results flagged for a closer look

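The difference between leaf and axillary bud itself differed before and after vernalization for 62 of the 84 named genes, by the interaction test of limma with adjusted p-values of 3.0e-09 to 0.014, and 39 of the 62 were also called after scaling. Over all tested genes the change was called towards leaf in 10.2% and towards axillary bud in 57% (21.9% and 18.4% after scaling). The named reversals were chosen for their change. The other named genes outside the SPL family were chosen by their difference or call after vernalization, which is part of the change. The 36 of 38 named genes outside the SPL family with a called change are therefore a description and test nothing. No group held enough libraries for a search for single deviating samples. Values below are changes of the difference on the log2(TPM + 1) scale, positive towards leaf. For genes listed at 0 in a group they depend on the pseudocount.

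Of the genes with the largest difference in favour of vernalized leaf, the changes were 6.48 for TraesCS2D02G515400, 9.99 for TraesCS2D02G425200, 9.64 for TraesCS2A02G427200, 2.67 for TraesCS2B02G541900, 10.69 for TraesCS2A02G427100, 9.31 for TraesCS2B02G447600, 9.28 for TraesCS2B02G447500, 1.49 for TraesCS2D02G065100, 7.63 for TraesCS2D02G460700 and 8.499 for TraesCS3B02G561700. A further silent gene, TraesCS2D02G425300, changed by 8.18. The most abundant leaf genes changed less, by 2.08 for TraesCS5D02G169900, 1.97 for TraesCS5B02G162800, 1.90 for TraesCS5A02G165700, 1.69 for TraesCS5A02G165400 and 1.55 for TraesCS5D02G169600.

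Of the genes with the largest difference in favour of vernalized axillary bud, the changes were -3.21 for TraesCS1B02G378400, -3.06 for TraesCS1D02G366400, -4.22 for TraesCS1A02G038200, -3.44 for TraesCS4A02G030300, -4.66 for TraesCS3A02G164300, -4.32 for TraesCS1D02G039900, -4.59 for TraesCS1A02G361700, -7.09 for TraesCS6B02G024600, -3.08 for TraesCS5A02G246200 and -3.48 for TraesCS1D02G274300. The change of TraesCS1D02G366400 was not called after scaling. Those of the silent genes called in axillary bud were -7.06 for TraesCS1D02G001200, -6.52 for TraesCS1D02G000200, -6.21 for TraesCS6D02G000200, -6.79 for TraesCS1D02G009400 and -6.30 for TraesCS1A02G008000.

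Reversals gave changes of 11.47 for TraesCS6A02G094300 and 10.13 for TraesCS1A02G403800 towards leaf, and of -11.30 for TraesCS6D02G358900, -10.03 for TraesCS7D02G383300 and -8.42 for TraesCS6A02G001200 towards axillary bud.

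Of the 46 tested SPL genes 26 (56.5%) moved towards axillary bud on deposited TPM, against 57% of all tested genes, and after scaling 4 of 45 (8.89%), against 18.4%. The changes called on both scales were -1.99 for TaSPL8A (-1.35 after scaling), -2.87 for TaSPL9A (-1.27 after scaling), -3.22 for TaSPL14B (-1.44 after scaling) and -3.31 for TaSPL14D (-1.53 after scaling). Changes called on deposited TPM alone were -1.46 for TaSPL1A, -1.46 for TaSPL1B, -1.93 for TaSPL1D, -1.09 for TaSPL2B, -1.001 for TaSPL3D, -1.10 for TaSPL4A, -1.15 for TaSPL4D, -2.45 for TaSPL6A, -2.33 for TaSPL6B, -2.22 for TaSPL6D, -1.29 for TaSPL8D, -2.07 for TaSPL9B and -2.19 for TaSPL9D. The remaining ones were -1.32 for TaSPL11A, -1.47 for TaSPL11B, -1.75 for TaSPL11D, -1.79 for TaSPL12A, -1.31 for TaSPL13A, -2.38 for TaSPL14A, -1.09 for TaSPL15A, -1.33 for TaSPL15B and -1.32 for TaSPL15D.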

How the results depend on the processing

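Median-of-ratios scaling gave 14829 genes higher in vernalized leaf and 17301 in vernalized axillary bud, 19 SPL genes higher in axillary bud, 166 and 172 runs, 1120 genes turning to leaf and 364 turning to axillary bud, and a median difference of -0.24. Of the 84 named genes 68 kept their call under it, 14 lost it and TaSPL6D turned to 0.0058. A filter of 5 TPM gave 18 SPL genes and a median of -1.28, and no filter a median of -0.39. With a pseudocount of 0.1 the median was -1.56, 3852 genes turned to axillary bud, and 30 of the 100 largest leaf differences were silent before. Among the 200 largest, 17 were. Runs of at least 3 numbered 232 for leaf and 2550 for axillary bud, and runs of at least 5 numbered 19 and 369. Leaving out single libraries gave 7996 to 9311 genes higher in vernalized leaf, 26966 to 29278 in vernalized axillary bud, 28 to 30 SPL genes in axillary bud and 11 to 12 silent leaf genes, and 4 or 5 named genes lost their call each time. TaSPL12A was called without vernalized leaf replicate 1 (-1.25). Replicate numbers did not pair vernalized leaf with vernalized axillary bud (correlation of deviations -0.03), and pairing in the other groups was not tested. In shoot apex, replicate 2 had the lower scaling factor before (1.18 and 0.745) and after vernalization (1.05 and 0.722). A replicate block gave 8809 and 30095 genes and changed no call of a named gene. The causes of these shifts were not tested. TPM keep no depth, so what depth limits is unknown.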

Other observations

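Called genes were not spread alike over expression levels. On deposited TPM, genes with a mean of 1 to 10 TPM over the 12 libraries were higher in vernalized leaf in 12.45% and in vernalized axillary bud in 52.2% of 36600 cases (22.0% and 28.3% after scaling), and those of 100 to 1000 TPM in 24.5% and 69.6% of 1424 (26.8% and 62.9% after scaling). Above 1000 TPM, 17 of 76 genes were higher in vernalized leaf and 55 in vernalized axillary bud, and after scaling 17 and 49. In the lowest class, under 1 TPM, the balance depended on the scale, with 15.7% and 20.6% on deposited TPM and 31.7% and 8.81% after scaling. The classes rest on the mean over all 12 libraries, most of them from axillary bud and shoot apex. A gene of the lowest class was tested only because the mean of some group exceeded 1 TPM. These shares are thus partly set by the choice of classes and of tested genes, and are a description.

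The 100 largest differences in favour of vernalized leaf also differed from shoot apex. Their median was 0.0834 and 0.0994 TPM in vernalized shoot apex and 17 had at least 1 TPM in both libraries. For the 100 in favour of vernalized axillary bud, the mean of vernalized shoot apex was above that of vernalized axillary bud in 93. Neither count was made over all tested genes. In 81 of the leaf genes the mean in vernalized leaf was at least 2 times that in leaf, and the reverse held for 0. In 72 of them vernalized leaf replicate 2 was above replicate 1.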
